A study of Mus musculus with 24 samples.

Results

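Genes of the ephrin, semaphorin and Slit guidance families were followed across all groups of an RNA-Seq experiment in NIH 3T3 cells, a fibroblast line that came from mouse embryos and grows without limit. The members were the Eph receptors, ephrins, semaphorins, plexins, neuropilins, Slits and Robos, taken by gene symbol and not by any measured change. Of 60 such genes in the annotation matched to the files, 40 reached a mean of at least 5 counts over the 24 libraries, and these are among the 14361 genes that reached it in all. The members were 4 EphA receptors, 4 EphB receptors, 4 ephrin-A and 3 ephrin-B ligands, 13 semaphorins, 7 plexins, 2 neuropilins, 2 Slits and 1 Robo. The other 20 stayed below that mean and were not tested (Efna2, Epha3, Epha5, Epha6, Epha8, Epha10, Ephb1, Plxnb3, Plxnc1, Robo1, Robo2, Robo4, Sema3e, Sema3g, Sema4d, Sema4f, Sema5b, Sema6a, Sema6d and Slit1).

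Ephrins are ligands held in the membrane of one cell that bind Eph receptor tyrosine kinases on its neighbor, so that signals can pass both ways at a cell contact. Semaphorins bind plexins, and most secreted class 3 semaphorins do so with a neuropilin as co-receptor, while Slits are secreted proteins that bind Robo receptors. These systems were described first in growing axons and also act on cell repulsion, the cytoskeleton and vessel growth, and fibroblasts express many of them.

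The study asked how the sarcoma fusion proteins TAZ-CAMTA1 and YAP-TFE3 alter gene expression, beside hyperactive full-length TAZ and YAP. All lines were pools of NIH 3T3 cells stably transduced with a retroviral vector and selected for drug resistance, so that every group, controls included, carries the vector, and no group is a single clone. The inserts were human cDNAs with a double Flag tag. The groups were the empty vector (EV), TAZ4SA and YAP5SA (TAZ and YAP with serines targeted by the LATS kinases changed to alanine), TAZ-CAMTA1, YAP-TFE3 and full-length TFE3, all collected after 48 h of confluence. Cells with full-length CAMTA1 were not yet confluent when taken and were compared with empty vector cells labelled sub-confluent (EVsub). Every group had 3 libraries, which the methods call biological triplicates. No untransduced cells were analysed here, and the proteins were made from a viral promoter rather than from their own genes.

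Library totals ranged from 16471181 to 30132586 counts (median 22298975), and no pair of replicates was as alike as sampling noise alone allows. The 10 fibroblast markers examined reached at least 33.4 CPM in every library, while Epcam and Adgre1 had none. For these and the other markers, CPM are counts scaled to the library total alone, without the TMM factors applied to the members below. Those factors were 1.039 to 1.057 in EV, 0.8103 to 1.036 in TAZ4SA and 0.7726 to 0.8286 in YAP5SA, and a lower factor gives a higher level. Summed over 4 blood markers, the level was 3.20 to 4.55 CPM in EV, 16.3 to 60.4 in TAZ4SA and 68.4 to 108 in YAP5SA, with Adgre1 at 0 and Ptprc at no more than 0.182 CPM. The rise lay in Cd68 (means of 3.33 in EV, 36.1 in TAZ4SA and 53.9 in YAP5SA) and Csf1r (0.666, 4.99 and 32.5). The sum of 6 endothelial markers was 3.15 to 5.10 CPM in EV, 9.42 to 15.1 in TAZ4SA and 8.78 to 13.6 in YAP-TFE3. It was 6.25 to 7.67 in YAP5SA, 5.22 to 5.88 in TAZ-CAMTA1, 6.33 to 7.42 in TFE3 and 0.785 to 1.09 in EVsub. Different genes carried these sums. Mean Kdr was 0.078 CPM in EV and 8.82 in TAZ4SA, and mean Vwf was 0.595 in EV and 8.18 in YAP-TFE3. Tek was lower than in EV (3.19) in both, at 0.188 in TAZ4SA and 2.34 in YAP-TFE3. The sum of 5 neuronal markers was 1.5 to 2.45 CPM in EV and 5.40 to 9.93 in TAZ4SA, and 2.28 to 2.59 in EVsub and 6.87 to 13.4 in CAMTA1, with Rbfox3 at no more than 0.0506 CPM. Most of this was Map2 (means of 0.923 in EV, 5.26 in TAZ4SA, 0.994 in EVsub and 2.55 in CAMTA1) and Tubb3 (0.418, 1.99, 0.854 and 5.88). Snap25 was lower in TAZ4SA (0.274) than in EV (0.668). The fibroblast sum was 38700 to 41900 CPM in EV, 22000 to 23700 in TAZ4SA and 25300 to 27600 in YAP5SA. It was 42800 to 49600 in TAZ-CAMTA1, 45400 to 58500 in YAP-TFE3, 32600 to 36600 in TFE3, 28100 to 40000 in EVsub and 23200 to 32300 in CAMTA1. Mean Fn1 was 18300 in EV, 5920 in TAZ4SA and 6500 in YAP5SA. Thy1 (39.8, 109 and 158) and Vim (3700, 4000 and 6520) went the other way, and Sparc (1670, 1920 and 1560) was higher in TAZ4SA only on this scale. The markers were not compared with TMM scaling, so differences as small as those of Sparc may depend on the scale. In bulk RNA, fewer cells of a type and less RNA per cell cannot be told apart, and the part of these markers in the results below was not tested. Replicate 2 of EV lay apart from the other 2 EV libraries in 27 of the 40 members, and its median distance from them was 0.32 on the log2 scale, against 0.19 and 0.15 for the others. Replicate 3 of TAZ4SA had a like distance of 0.33, and for these libraries, as for others named below, calls lost or gained without them are given beside the gene or its comparison.

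Levels of members are normalized counts, scaled to library size by the TMM method, and are also written as CPM. Per kb of exon, the most abundant members over all libraries were receptors of semaphorins and Slit3. Plxnb2 stood at 69.5 CPM per kb and Plxna1 at 54.0, above 95.5% and 94.0% of the tested genes. Slit3 followed at 32.8, Nrp2 at 25.4 and Plxnd1 at 22.9 CPM per kb, and then Ephb4 and Sema3f, both at 21.5. Among the ephrins, Efna1 led with 20.1 CPM per kb, and Epha2 led the EphA receptors with 11.1. The members' median was 4.39 CPM per kb, beside 5.36 over all tested genes with a known length. In EV, Plxna1 (58.9 ± 3.70, SD, n = 3) and Plxnb2 (57.8 ± 1.72) differed by less than their spread, as did Slit3 (26.4 ± 6.03) and Ephb4 (26.2 ± 3.96). At the low end, Plxna4, Sema6b, Sema4a and Sema3d were each at or below 0.103 CPM per kb in EV, and Robo3 had no count there.

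**Figure D1:**
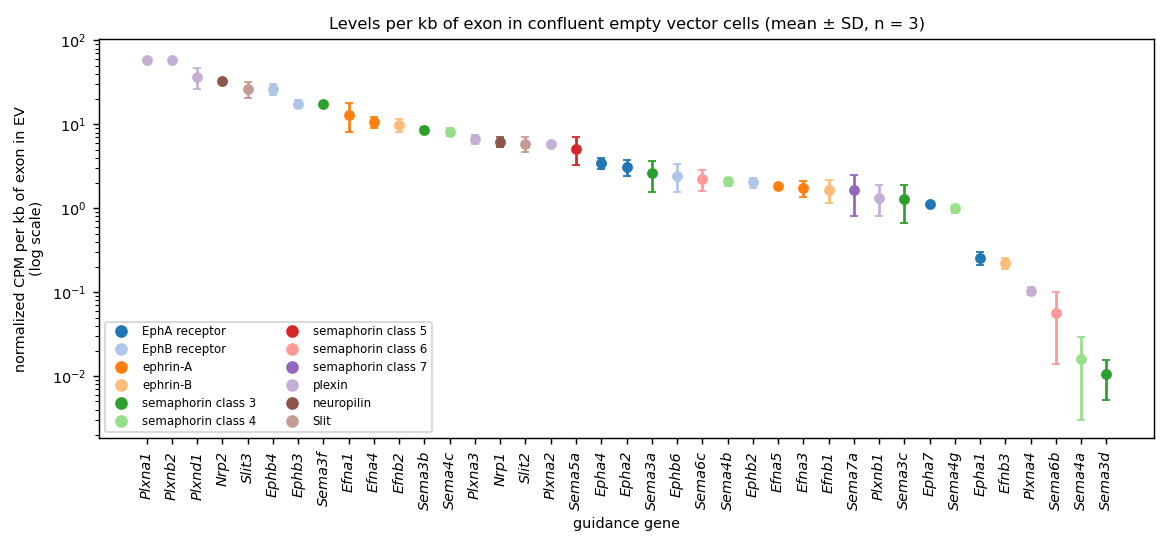
Normalized CPM per kb of exon in the 3 EV libraries (log scale) for 39 members, ordered by level and colored by role, with mean ± SD. Plxna1 and Plxnb2 stand highest at 58.9 and 57.8 CPM per kb, and Robo3, with no count in EV, is not drawn.

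To ask how each expressed protein changed these genes, counts were tested with edgeR's quasi-likelihood test in one fit over all libraries, and a gene was called differentially expressed (DE) at a Benjamini-Hochberg adjusted p under 0.05 over all 14361 genes. Comparisons with EV share its 3 libraries. In TAZ4SA cells 28 of the 40 members were DE, of which 13 rose and 15 fell, where 31.1% of all tested genes rose and 26.4% fell. Sema3d and Sema4a reached the mean of 5 counts only through TAZ4SA (over the other 21 libraries their means were 1.52 and 4.33), so that their rises there were favored by the filter, and without them 26 of 38 members were DE, 11 higher and 15 lower. In YAP5SA cells 27 were DE, 13 higher and 14 lower, beside 36.3% and 34.9% of all genes. Robo3 reached the mean of 5 counts only through TAZ4SA and YAP5SA together. Its rises in them were favored by the filter too, and it is kept in the counts given here. In both, many genes of every kind were DE, and the count of YAP5SA in particular is near what all genes show.

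For TAZ-CAMTA1 20 members were DE, with 11 higher and 9 lower, whereas 12.5% of all genes rose and 8.98% fell. For YAP-TFE3 12 were DE, with 6 in each direction, beside 10.6% of all genes higher and 4.74% lower. The sub-confluent empty vector cells differed from the confluent ones in 16 members, 2 higher and 14 lower, beside 12.5% higher and 9.59% lower over all genes. For full-length TFE3 no member was DE by edgeR (8 had an unadjusted p under 0.05) or by DESeq2, against 2.36% of all genes higher and 1.02% lower. For CAMTA1 against EVsub 1 member was higher and none was lower, beside 1.29% and 0.891% of all genes, and 16 members had an unadjusted p under 0.05.

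The median absolute log2 fold change of the members was 0.99 in TAZ4SA, 1.12 in YAP5SA, 0.57 in TAZ-CAMTA1 and 0.35 in YAP-TFE3. The same medians over all tested genes were 0.55, 0.81, 0.26 and 0.22. The members' median was also above that of all genes in the other comparisons with an empty vector. It was 0.402 against 0.265 in EVsub, 0.266 against 0.161 in TFE3 and 0.39 against 0.198 in CAMTA1, so the excess was not particular to the TAZ and YAP proteins. With Robo3, which had no count in EV, set at its lower bound, the TAZ-CAMTA1 median was 0.55 and the others did not move. Signed medians of the members lay between -0.18 and 0.12 in all comparisons with an empty vector.

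**Figure D2:**
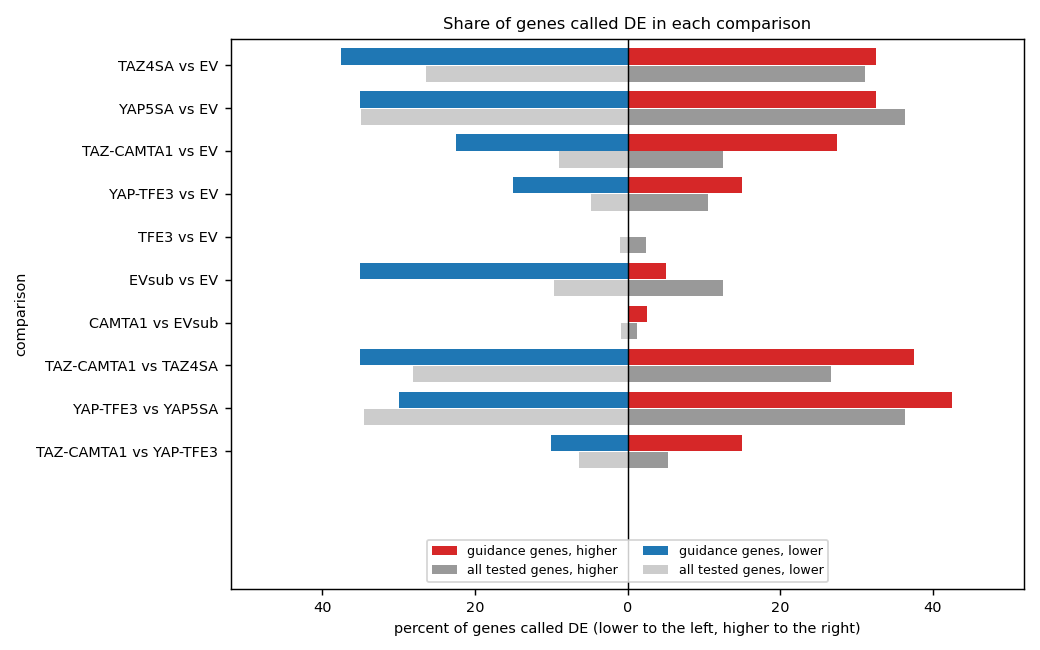
Percent of genes called DE in each of 10 comparisons, higher to the right and lower to the left of 0, for the 40 members (red and blue) and all 14361 tested genes (gray). The members' bars exceed the gray ones most for the TAZ-CAMTA1 cells and for lower calls in EVsub.

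Across TAZ4SA, YAP5SA, TAZ-CAMTA1 and YAP-TFE3, Sema6b was the 1 member higher than EV in all of them, and Efna4, Efnb2, Epha7, Plxnb1 and Plxnd1 were lower in all of them. Plxna4 was DE in each of these groups but lower in TAZ4SA and YAP5SA and higher in TAZ-CAMTA1 and YAP-TFE3. Efna3, Ephb4, Plxna3 and Sema6c were DE in none of these comparisons with EV, although without EV replicate 2 Efna3 was lower in YAP-TFE3 (-0.66, adjusted p = 0.0408) and Ephb4 was lower in TAZ4SA, TAZ-CAMTA1 and YAP-TFE3. The share of all tested genes with each of these patterns was not counted, so the patterns describe single genes and not the members as a set.

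**Figure D3:**
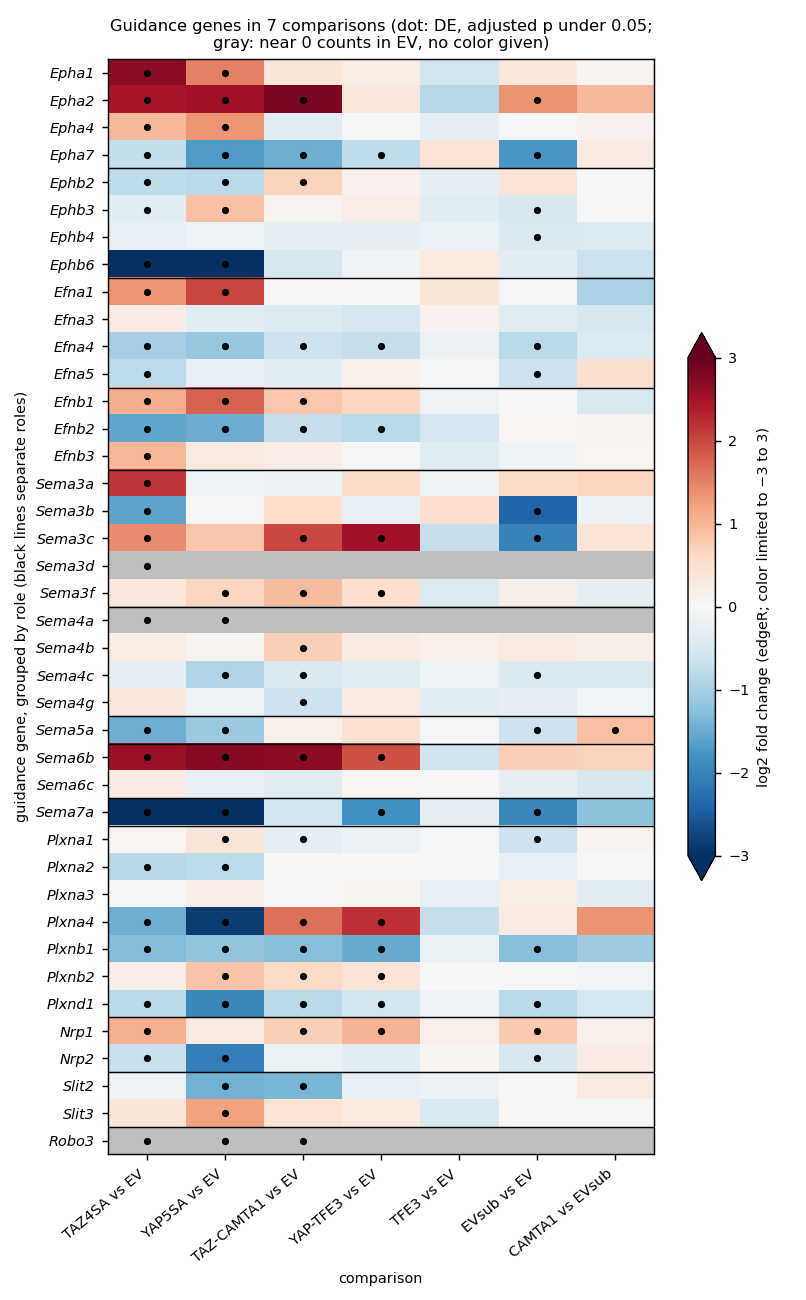
Fitted log2 fold changes of the 40 members, grouped by role, in 7 comparisons with an empty vector. Dots mark DE genes, and the rows of Robo3, Sema3d and Sema4a are gray because EV held between 0 and 4 counts of them in each library. The TFE3 column holds no dot.

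Promoter sequences of RefSeq on GRCm38.p6, 250 bases before to 50 bases after each transcription start, were matched for 35 members (46 promoters). The core sequence bound by TEAD factors, through which TAZ and YAP act, was searched on both strands as CATTCC, which reads as the reverse complement GGAATG on the other strand. It was found in 6 of the 46 promoters (13%), and in 14.7% of all 32851 promoters of the table. The 6 belonged to Efnb2, Epha1, Epha2, Plxnb1, Plxnd1 and Sema4a, and Epha2 held 2 matches, which began 243 and 56 bases before the start. The AP-1 sequence TGANTCA, whose matches do not depend on the strand, stood in 4.35% of the member promoters (Sema4c and Sema6b) and 7.81% of all, and the E-box CACGTG in 2.17% (Sema4b) and 7.15%. A match is a description of letters and not a site shown to be bound. The promoter of Epha2 (chr4:141300971-141301270, plus strand) is shown because Epha2 had the largest rise of the Eph receptors in TAZ-CAMTA1 cells, and those of Efnb2 (chr8:8661193-8661492, minus strand), Plxnb1 (chr9:109095186-109095485, plus strand) and Plxnd1 (chr6:115994956-115995255, minus strand) because these genes fell in all 4 groups with a TAZ or YAP protein and their promoters hold the core. Efna4 and Epha7 fell in all 4 groups as well, and their promoters, which are not shown, held no match. Capitals mark the TEAD core, and each is written 5′ to 3′ on the gene's strand.
Epha2: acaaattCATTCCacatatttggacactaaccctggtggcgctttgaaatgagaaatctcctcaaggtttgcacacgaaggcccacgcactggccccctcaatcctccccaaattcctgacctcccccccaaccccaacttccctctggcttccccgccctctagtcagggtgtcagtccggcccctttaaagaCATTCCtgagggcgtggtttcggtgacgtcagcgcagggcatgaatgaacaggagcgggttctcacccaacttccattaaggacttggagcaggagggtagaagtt
Efnb2: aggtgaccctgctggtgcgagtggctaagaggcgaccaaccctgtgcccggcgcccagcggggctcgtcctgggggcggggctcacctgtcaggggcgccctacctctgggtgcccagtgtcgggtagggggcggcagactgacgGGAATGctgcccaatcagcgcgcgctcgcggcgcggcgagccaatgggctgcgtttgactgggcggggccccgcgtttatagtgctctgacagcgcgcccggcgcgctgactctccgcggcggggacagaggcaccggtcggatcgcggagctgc
Plxnb1: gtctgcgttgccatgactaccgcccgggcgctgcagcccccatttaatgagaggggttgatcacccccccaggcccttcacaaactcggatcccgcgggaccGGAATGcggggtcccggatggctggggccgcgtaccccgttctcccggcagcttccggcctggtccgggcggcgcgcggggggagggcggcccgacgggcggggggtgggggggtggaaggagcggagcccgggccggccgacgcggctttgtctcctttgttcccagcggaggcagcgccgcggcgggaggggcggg
Plxnd1: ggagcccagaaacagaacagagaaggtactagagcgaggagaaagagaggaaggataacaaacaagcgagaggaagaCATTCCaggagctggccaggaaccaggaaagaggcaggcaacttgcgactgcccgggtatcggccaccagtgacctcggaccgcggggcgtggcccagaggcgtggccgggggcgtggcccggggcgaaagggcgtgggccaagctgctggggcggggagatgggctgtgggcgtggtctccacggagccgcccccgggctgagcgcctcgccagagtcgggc

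Among the EphA receptors, which mainly bind ephrin-A ligands, Epha2 had the widest range of levels. The EV libraries held 12.7, 17.9 and 12.9 CPM, the TAZ4SA libraries 52.2, 64.6 and 122, and the YAP5SA libraries 96.6, 64.9 and 85.3. TAZ-CAMTA1 libraries held 79.5, 110 and 119 CPM and YAP-TFE3 libraries 14.3, 22.1 and 18.0. Every library of the first 3 proteins lay above every EV library, whereas those of YAP-TFE3 overlapped EV. The log2 fold change of Epha2 against EV was 2.47 ± 0.28 (SE) in TAZ4SA (edgeR adjusted p = 2.37e-07), 2.51 ± 0.28 in YAP5SA (adjusted p = 7.18e-08) and 2.83 ± 0.29 in TAZ-CAMTA1 (adjusted p = 2.34e-07). In YAP-TFE3 it was 0.33 ± 0.28 (adjusted p = 0.494). Epha2 was also higher in EVsub (47.9, 38.6 and 23.8 CPM) than in EV, by 1.35 ± 0.28 on the log2 scale (adjusted p = 0.00141).

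Epha7 went the other way, with 11.1, 11.2 and 10.8 CPM in EV and 4.49, 3.87 and 3.63 in TAZ-CAMTA1. YAP5SA held 3.13, 3.29 and 3.86 CPM, TAZ4SA 6.70, 6.22 and 7.17, and YAP-TFE3 5.32, 5.29 and 8.79. All of these libraries lay below all EV libraries. The log2 fold changes were -1.46 ± 0.17 in TAZ-CAMTA1 (adjusted p = 1.58e-06), -1.69 ± 0.18 in YAP5SA (adjusted p = 1.99e-08), -0.72 ± 0.17 in TAZ4SA (adjusted p = 0.000891) and -0.77 ± 0.16 in YAP-TFE3 (adjusted p = 0.00201). In EVsub, at 2.96, 3.24 and 3.68 CPM, Epha7 fell by 1.74 ± 0.17 on the log2 scale (adjusted p = 1.18e-06).

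Epha4, a receptor that binds ephrins of both classes, rose in the cells with full-length proteins. It stood at 28.9, 23.7 and 32.0 CPM in EV, at 77.5, 71.8 and 62.3 in YAP5SA and at 52.1, 63.3 and 52.1 in TAZ4SA, with no overlap. Its log2 fold changes were 1.32 ± 0.13 (adjusted p = 8.62e-09) and 0.98 ± 0.13 (adjusted p = 1.47e-06), and those in the fusion protein cells were -0.31 (adjusted p = 0.0885) in TAZ-CAMTA1 and -0.04 (adjusted p = 0.893) in YAP-TFE3. The TAZ-CAMTA1 value was -0.42 (adjusted p = 0.0277) without EV replicate 2 and -0.44 (adjusted p = 0.0264) without TAZ-CAMTA1 replicate 1. Epha1 was low in EV (0.81 to 1.14 CPM) and rose to 4.65 to 9.41 in TAZ4SA and 2.79 to 2.94 in YAP5SA, which gave log2 fold changes of 2.69 ± 0.28 and 1.5 ± 0.29. On the opposite strand Zyx, which rose by 1.20 in both, shares 236 of the 3928 exon bases of Epha1, and how far its reads were counted for Epha1 was not tested, since the sources used here do not give the strand setting.

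Among the EphB receptors, which mainly bind ephrin-B ligands, Ephb6 changed most. Ephb6, a receptor without kinase activity, stood at 12.6, 5.78 and 9.34 CPM in EV, at 0.794, 1.2 and 1.5 in TAZ4SA and at 0.359, 0.687 and 0.887 in YAP5SA. The lowest EV library was more than 3 times the highest TAZ4SA library. It fell by 2.98 ± 0.30 (adjusted p = 3.54e-08) and by 3.86 ± 0.33 (adjusted p = 9.02e-10) on the log2 scale, and it was not DE in TAZ-CAMTA1 (-0.48 ± 0.25) or YAP-TFE3 (-0.11 ± 0.24). Without EV replicate 2, the lowest of the EV libraries, the TAZ-CAMTA1 value was -0.72 and was DE (adjusted p = 0.0319).

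Ephb2 and Ephb3 did not move in one direction over these lines. Ephb2 fell in TAZ4SA (-0.76 ± 0.16) and YAP5SA (-0.80 ± 0.16) and rose in TAZ-CAMTA1 (0.66 ± 0.16, adjusted p = 0.00431). Ephb3 rose in YAP5SA by 0.88 ± 0.14 (adjusted p = 4.78e-06) and fell in TAZ4SA by 0.34 ± 0.14 (adjusted p = 0.033), and the second call was lost without replicate 1 or 3 of EV or replicate 1 or 3 of TAZ4SA (adjusted p of 0.0659 to 0.143). Ephb4, the receptor of Efnb2 and the most abundant EphB receptor per kb, stood at 136, 101 and 127 CPM in EV. Of the comparisons with an empty vector it was DE only between EVsub (76.8, 103 and 90.4 CPM) and EV, at -0.43 ± 0.13 (adjusted p = 0.0198), with overlapping libraries, and this call was lost without replicate 1 or 3 of EV or replicate 1 of EVsub (adjusted p of 0.0776 to 0.116). Without EV replicate 2, the lowest, Ephb4 was also lower in TAZ4SA (-0.36, adjusted p = 0.0288), TAZ-CAMTA1 (-0.38, adjusted p = 0.0444) and YAP-TFE3 (-0.40, adjusted p = 0.0467), and in TAZ4SA likewise without its replicate 2 (-0.39, adjusted p = 0.0167).

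Of the ephrin-A ligands, Efna1 rose in the cells with full-length proteins. It stood at 32.2, 14.2 and 25.2 CPM in EV, at 89.4, 107 and 91.2 in YAP5SA and at 57.6, 92.0 and 31.9 in TAZ4SA. All YAP5SA libraries lay above EV, while the lowest TAZ4SA library lay within the EV range. The log2 fold changes were 2.00 ± 0.28 (adjusted p = 1.24e-06) in YAP5SA and 1.33 ± 0.27 (adjusted p = 0.000265) in TAZ4SA, and in the fusion protein cells it was not DE (0.00 ± 0.27 in TAZ-CAMTA1 and 0.04 ± 0.27 in YAP-TFE3). Efna4 fell in all 4 groups with a TAZ or YAP protein, by 1.00 ± 0.15 in TAZ4SA, 1.13 ± 0.15 in YAP5SA, 0.63 ± 0.15 in TAZ-CAMTA1 and 0.70 ± 0.15 in YAP-TFE3, and by 0.81 ± 0.15 in EVsub. Efna5 fell in TAZ4SA (-0.78 ± 0.17) and in EVsub (-0.62 ± 0.16, adjusted p = 0.00891), where the call was lost without replicate 2 of EVsub (adjusted p = 0.0572). Efna3 was not DE against an empty vector in any group with all libraries in the fit.

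The ephrin-B ligands, which span the membrane, split by gene. Efnb2, a ligand known from arterial endothelium, stood at 57.2, 81.1 and 66.6 CPM in EV, at 16.2, 23.8 and 29.4 in TAZ4SA and at 22.4, 24.9 and 25.9 in YAP5SA. TAZ-CAMTA1 libraries held 38.4, 45.2 and 44.0 CPM and YAP-TFE3 libraries 30.6, 43.1 and 42.2. All of these lay below all EV libraries, with log2 fold changes of -1.56 ± 0.17 (adjusted p = 1.34e-07), -1.48 ± 0.17 (adjusted p = 9.78e-08), -0.68 ± 0.17 (adjusted p = 0.00477) and -0.82 ± 0.17 (adjusted p = 0.00134). EVsub did not differ detectably from EV for this gene (0.06 ± 0.16).

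Efnb1 rose instead, from 7.09, 3.72 and 6.24 CPM in EV to 13.4, 12.6 and 10.2 in TAZ4SA, 21.7, 17.0 and 19.3 in YAP5SA and 9.46, 9.92 and 10.6 in TAZ-CAMTA1. None of these libraries overlapped EV. The log2 fold changes were 1.08 ± 0.23 (adjusted p = 0.000326), 1.76 ± 0.22 (adjusted p = 4.32e-07) and 0.81 ± 0.22 (adjusted p = 0.0119), and the last was 0.58 (adjusted p = 0.0655) without EV replicate 2. In YAP-TFE3 (12.8, 7.60 and 6.54 CPM, overlapping EV) the value was 0.65 (adjusted p = 0.0556). Efnb1 was DE there without EV replicate 1 (0.84, adjusted p = 0.0343), or without YAP-TFE3 replicate 2 (0.76, adjusted p = 0.0488) or 3 (0.83, adjusted p = 0.0174). Efnb3, below 1 CPM in EV, rose in TAZ4SA by 1.00 ± 0.35 (adjusted p = 0.0165), a call lost without EV replicate 1 or TAZ4SA replicate 1 or 3 (adjusted p of 0.0523 to 0.0596).

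**Figure D4:**
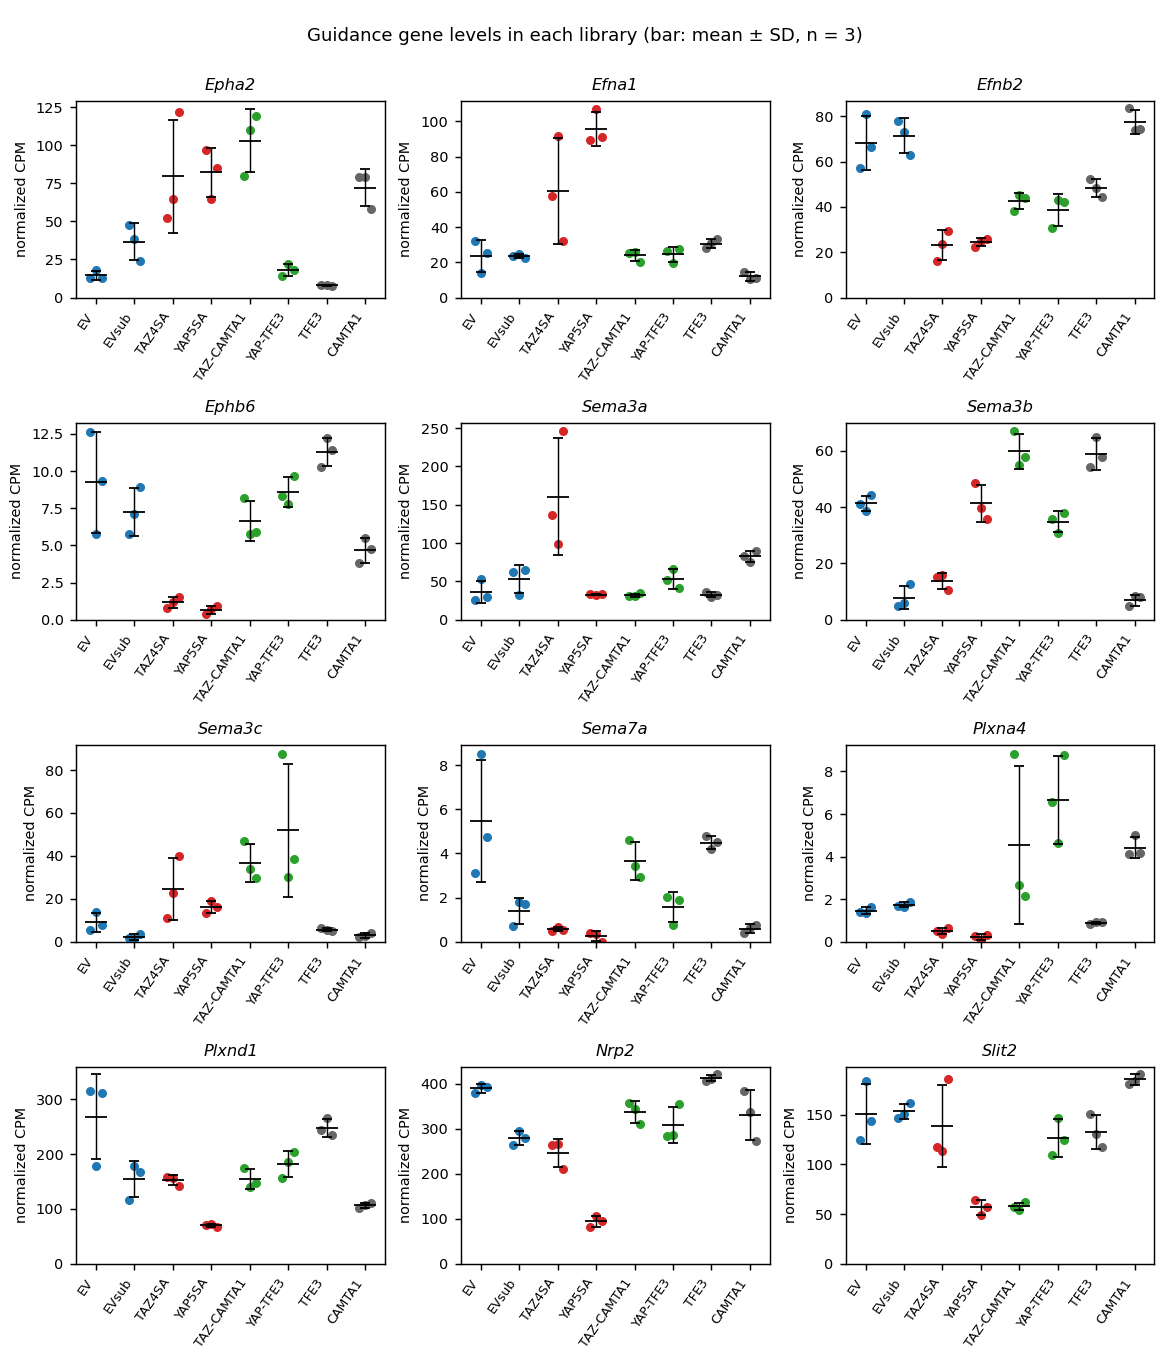
Normalized CPM of 12 members in each library of the 8 groups (points), with the mean ± SD of 3 libraries (bars); each panel has its own linear axis from 0. Epha2 is high in TAZ4SA, YAP5SA and TAZ-CAMTA1 and near EV in YAP-TFE3, and Plxna4 is above EV in both fusion protein groups and below it in TAZ4SA and YAP5SA.

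The secreted class 3 semaphorins each had a pattern of their own. Sema3a, a repellent of axons that binds Nrp1, stood at 26.2, 52.8 and 29.5 CPM in EV, at 137, 98.9 and 246 in TAZ4SA and at 33.0, 32.2 and 32.9 in YAP5SA. The TAZ4SA libraries lay above all others, and those of YAP5SA lay within the EV range. The log2 fold change was 2.15 ± 0.29 in TAZ4SA (adjusted p = 2.03e-06) and -0.14 ± 0.28 in YAP5SA (adjusted p = 0.661). Without EV replicate 2, the high one, the values in YAP-TFE3 (0.56, adjusted p = 0.21) and EVsub (0.55, adjusted p = 0.171) were 0.93 in each, with adjusted p of 0.0335 and 0.0277. TAZ4SA and YAP5SA were not tested against each other here.

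Sema3b stood at 41.2, 38.6 and 44.2 CPM in EV and at 15.2, 15.8 and 10.6 in TAZ4SA, a fall of 1.58 ± 0.24 (adjusted p = 1.14e-05), while YAP5SA held 48.6, 39.7 and 35.7 CPM and was not DE (adjusted p = 0.999). EVsub had a lower mean still, at 4.92, 6.02 and 12.6 CPM, a log2 fold change of -2.40 ± 0.25 against EV (adjusted p = 2.36e-06). Sema3b in the CAMTA1 cells (4.69, 8.28 and 7.92 CPM) overlapped EVsub.

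Sema3c stood at 5.45, 14.0 and 8.01 CPM in EV, at 46.8, 33.9 and 29.7 in TAZ-CAMTA1 and at 87.5, 30.2 and 38.4 in YAP-TFE3. All fusion protein libraries lay above EV, by 2.01 ± 0.43 (adjusted p = 0.00175) and 2.51 ± 0.44 (adjusted p = 0.000293). In TAZ4SA (11.0, 22.7 and 39.8 CPM) the libraries overlapped EV, and the log2 fold change of 1.43 ± 0.43 (adjusted p = 0.00717) became 0.87 (adjusted p = 0.0887) without replicate 3. EVsub held 1.91, 1.25 and 3.72 CPM, all below EV, with a log2 fold change of -2.00 ± 0.49 (adjusted p = 0.00506). The YAP5SA value of 0.84 (adjusted p = 0.0885) was 1.28 (adjusted p = 0.0236) without EV replicate 2.

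Sema3f, a ligand of Nrp2 and the most abundant semaphorin per kb, stood at 86.9, 90.4 and 92.4 CPM in EV, at 180, 171 and 167 in TAZ-CAMTA1 and at 143, 114 and 124 in YAP-TFE3. It rose by 0.94 ± 0.14 (adjusted p = 2.84e-05) and by 0.50 ± 0.14 (adjusted p = 0.0142), with no overlap, and in YAP5SA by 0.64 ± 0.14 (adjusted p = 0.000253). In TAZ4SA the value of 0.31 (adjusted p = 0.0578) was 0.41 (adjusted p = 0.0149) without replicate 3. The YAP-TFE3 call was lost without EV replicate 1 (adjusted p = 0.0593) or YAP-TFE3 replicate 1 (adjusted p = 0.139). Sema3d had 1, 2 and 3 counts in the EV libraries, 42, 12 and 70 in TAZ4SA and 0 in every TAZ-CAMTA1 library. The ratio of TAZ4SA to EV counts, scaled to library size, was 24.7, with an exact 95% interval of 11.0 to 68.6 that covers counting error only. Since Sema3d passed the filter through TAZ4SA alone, this ratio is given as a description.

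Semaphorins of classes 4 to 7 are attached to the membrane. Sema7a, whose known receptors are integrins and Plxnc1, stood at 3.12, 8.50 and 4.73 CPM in EV, at 0.496, 0.675 and 0.528 in TAZ4SA and at 0.411, 0.343 and 0.00 in YAP5SA. YAP-TFE3 held 2.01, 0.770 and 1.91 CPM, also below every EV library, and TAZ-CAMTA1, at 4.61, 3.45 and 2.95, overlapped EV. The log2 fold changes of Sema7a were -3.28 ± 0.47 in TAZ4SA (adjusted p = 5.07e-06), -4.32 ± 0.53 in YAP5SA (adjusted p = 2.31e-07), -1.82 ± 0.40 in YAP-TFE3 (adjusted p = 0.00281) and -0.56 ± 0.38 in TAZ-CAMTA1 (adjusted p = 0.31). In EVsub (0.729, 1.78 and 1.69 CPM) it fell by 1.94 ± 0.40 (adjusted p = 0.00164).

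Sema5a, a semaphorin with thrombospondin repeats, stood at 73.4, 136 and 77.7 CPM in EV, at 38.3, 41.1 and 25.4 in TAZ4SA and at 39.4, 44.3 and 49.7 in YAP5SA. It fell by 1.46 ± 0.23 (adjusted p = 1.46e-05) and by 1.10 ± 0.23 (adjusted p = 0.000169), and it was not DE in TAZ-CAMTA1 (0.15) or YAP-TFE3 (0.47, adjusted p = 0.177). Without EV replicate 2, the high one, the YAP-TFE3 value was 0.81 (adjusted p = 0.0129). Sema6b was rare in EV (6, 8 and 1 counts, at most 0.382 CPM) and was higher in TAZ4SA (1.19 to 1.80 CPM), YAP5SA (1.08 to 1.85), TAZ-CAMTA1 (1.01 to 1.82) and YAP-TFE3 (0.637 to 1.00). Its fitted log2 fold changes were 2.58 ± 0.51, 2.72 ± 0.51, 2.69 ± 0.50 and 1.91 ± 0.53, and the last (adjusted p = 0.0146) was lost without EV replicate 3 (adjusted p = 0.0953) or YAP-TFE3 replicate 1 (adjusted p = 0.063). Sema6c, at 16.3, 9.22 and 14.0 CPM in EV, was not DE against an empty vector.

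Of the class 4 genes, Sema4c, a ligand of Plxnb2, stood at 40.5, 33.2 and 39.5 CPM in EV and fell to 18.9, 21.3 and 20.6 in YAP5SA (-0.90 ± 0.13, adjusted p = 2.21e-06). Its smaller falls in TAZ-CAMTA1 (-0.42 ± 0.13, adjusted p = 0.0194) and EVsub (-0.43 ± 0.13, adjusted p = 0.0189) were lost without EV replicate 1 or 3, without TAZ-CAMTA1 replicate 2 or 3, or without EVsub replicate 1, with adjusted p of 0.0574 to 0.0926 and of 0.0747 to 0.111. Sema4c without EV replicate 2 was also lower in TAZ4SA (-0.35, adjusted p = 0.0353) and YAP-TFE3 (-0.45, adjusted p = 0.0282), and in TAZ4SA likewise without its replicate 2 (-0.36, adjusted p = 0.0327). Sema4b rose in TAZ-CAMTA1 (0.71 ± 0.14, adjusted p = 0.000719). Sema4g fell there (-0.62 ± 0.20, adjusted p = 0.0306), a call lost without EV replicate 1 or 3 or TAZ-CAMTA1 replicate 1 or 2 (adjusted p of 0.0654 to 0.153). Sema4a had 4, 1 and 1 counts in EV against 30, 16 and 13 in TAZ4SA, a scaled ratio of 11.8 (exact 95% interval of 5.09 to 33.3), and 6, 9 and 8 in YAP5SA, a ratio of 4.63 (1.83 to 13.9). These are descriptions too, since Sema4a also passed the filter through TAZ4SA alone.

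Plexins are the semaphorin receptors that act on small GTPases. Plxna4 showed opposite directions, at 1.39, 1.34 and 1.64 CPM in EV, 0.257, 0.0491 and 0.317 in YAP5SA and 0.496, 0.375 and 0.660 in TAZ4SA. TAZ-CAMTA1 libraries held 8.82, 2.66 and 2.16 CPM and YAP-TFE3 libraries 6.57, 4.62 and 8.79. None of these groups overlapped EV. Plxna4 fell by 2.84 ± 0.60 in YAP5SA (adjusted p = 0.000212) and by 1.46 ± 0.50 in TAZ4SA (adjusted p = 0.0157), and rose by 2.18 ± 0.39 in YAP-TFE3 (adjusted p = 0.000355) and by 1.64 ± 0.39 in TAZ-CAMTA1 (adjusted p = 0.00396). The TAZ-CAMTA1 value was 0.72 (adjusted p = 0.0861) without replicate 1, and the TAZ4SA call was lost without replicate 1 or 2 of TAZ4SA (adjusted p of 0.0501 and 0.0524). Full-length CAMTA1 cells held 4.11, 5.0 and 4.17 CPM of Plxna4, above every EVsub library (1.69, 1.64 and 1.86). The log2 fold change there was 1.35 ± 0.38 (edgeR adjusted p = 0.0646), and DESeq2 called it.

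Plxnd1, the receptor of Sema3e in vessels, stood at 314, 179 and 311 CPM in EV, at 175, 140 and 147 in TAZ-CAMTA1 and at 71.2, 71.9 and 67.0 in YAP5SA. TAZ4SA held 159, 157 and 142 CPM and YAP-TFE3 157, 186 and 204. The second EV library was the low one, and YAP-TFE3 alone among these groups overlapped it. Plxnd1 fell by 1.94 ± 0.17 in YAP5SA (adjusted p = 2.34e-09), 0.80 ± 0.17 in TAZ-CAMTA1 (adjusted p = 0.00144), 0.81 ± 0.17 in TAZ4SA (adjusted p = 0.000305) and 0.56 ± 0.17 in YAP-TFE3 (adjusted p = 0.0259). The last call was lost without EV replicate 1 or 3 or YAP-TFE3 replicate 1 or 2 (adjusted p of 0.0592 to 0.158), and the other 3 were kept in every alternative.

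Plxnb1, a receptor of Sema4d, stood at 16.6, 6.97 and 15 CPM in EV and at 3.41, 3.75 and 6.33 in YAP-TFE3, a fall of 1.52 ± 0.30 (adjusted p = 0.00116), and it fell by 1.30 in TAZ4SA, 1.17 in YAP5SA and 1.27 in TAZ-CAMTA1. Plxnb2, the most abundant member, stood at 431, 456 and 452 CPM in EV, at 889, 696 and 833 in YAP5SA and at 642, 666 and 694 in TAZ-CAMTA1. Both groups lay above EV, by 0.85 ± 0.12 (adjusted p = 1.36e-06) and 0.58 ± 0.12 (adjusted p = 0.00107). Its rise in YAP-TFE3 (0.40 ± 0.12, adjusted p = 0.0233) was lost without EV replicate 1 or 3 or YAP-TFE3 replicate 1 (adjusted p of 0.0656 to 0.217), and the TAZ4SA value of 0.20 (adjusted p = 0.162) was 0.29 (adjusted p = 0.0406) without replicate 3.

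Of the other class A plexins, Plxna2 fell in TAZ4SA (-0.82 ± 0.17) and YAP5SA (-0.77 ± 0.17), and Plxna3 was not DE in any of the 10 comparisons. Plxna1 rose in YAP5SA (0.37 ± 0.09, adjusted p = 0.000936) and fell in TAZ-CAMTA1 (-0.27 ± 0.09, adjusted p = 0.0351). The fall was lost without any one of EV replicates 1 and 3 and the 3 TAZ-CAMTA1 replicates (adjusted p of 0.0733 to 0.143).

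The neuropilins, co-receptors of class 3 semaphorins and VEGF, moved apart. Nrp1 stood at 54.4, 69.8 and 57.0 CPM in EV, at 124, 134 and 118 in TAZ4SA and at 145, 108 and 117 in YAP-TFE3. Its log2 fold changes were 1.06 ± 0.18 (adjusted p = 2.62e-05) and 1.03 ± 0.17 (adjusted p = 0.000218), both without overlap, 0.71 ± 0.17 in TAZ-CAMTA1 (adjusted p = 0.00494) and 0.24 ± 0.17 in YAP5SA (adjusted p = 0.226). EVsub (132, 108 and 73.4 CPM) was higher than EV as well, by 0.79 ± 0.17 (adjusted p = 0.00249).

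Nrp2 stood at 379, 397 and 393 CPM in EV, at 82.3, 106 and 95.6 in YAP5SA and at 264, 266 and 211 in TAZ4SA. It fell by 2.04 ± 0.13 (adjusted p = 1.80e-11) and by 0.66 ± 0.13 (adjusted p = 0.000138), with no overlap, and was not DE in TAZ-CAMTA1 (-0.21 ± 0.13) or YAP-TFE3 (-0.34 ± 0.13), where the value was -0.45 (adjusted p = 0.0279) without replicate 3. It also fell in EVsub, by 0.48 ± 0.13 (adjusted p = 0.00836).

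The Slits, ligands of Robo receptors, differed from each other too. Slit2 stood at 124, 184 and 144 CPM in EV, at 63.7, 49.3 and 56.9 in YAP5SA and at 57.6, 54.4 and 61.7 in TAZ-CAMTA1. Both groups lay below EV, by 1.41 ± 0.17 (adjusted p = 1.74e-07) and 1.38 ± 0.17 (adjusted p = 3.21e-06) on the log2 scale. In TAZ4SA, at 117, 113 and 186 CPM, the value was -0.12 ± 0.16 (adjusted p = 0.562), and without replicate 3, the high one, it was -0.39 (adjusted p = 0.026). Slit3 stood at 133, 202 and 146 CPM in EV and rose to 365, 387 and 365 in YAP5SA (1.22 ± 0.19, adjusted p = 5.39e-06), while the values in TAZ4SA (0.35), TAZ-CAMTA1 (0.42) and YAP-TFE3 (0.29) were not DE. Without EV replicate 2, the high one, Slit3 was DE in TAZ-CAMTA1 (0.62, adjusted p = 0.0263) and TAZ4SA (0.55, adjusted p = 0.021), and in TAZ4SA likewise without its replicate 3 (0.53, adjusted p = 0.0143).

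Robo3, the 1 Robo receptor that was tested, had no count in any EV library. It had 54, 30 and 21 counts in TAZ4SA and 190, 106 and 82 in YAP5SA. Against a floor of 3 counts per EV library, it was at least 14.5-fold higher in TAZ4SA and at least 50-fold higher in YAP5SA. No library outside these groups held more than 7 counts, so Robo3 passed the filter only through TAZ4SA and YAP5SA. These ratios are therefore descriptions. TAZ-CAMTA1 held 7, 2 and 2 counts, of which 1 library exceeded the floor, and its call (adjusted p = 0.0293) was lost without any EV replicate or without TAZ-CAMTA1 replicate 1 (adjusted p of 0.0596 to 0.107). Full-length TFE3 cells had no Robo3 count.

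To test whether a fusion protein differed from the hyperactive protein of its own family, the groups were compared directly. TAZ-CAMTA1 differed from TAZ4SA in 29 members, 15 higher and 14 lower, beside 26.6% and 28.1% of all genes. Without Sema3d and Sema4a, which passed the filter through TAZ4SA, 27 of 38 members were DE, 15 higher and 12 lower. Ephb6 (2.50 ± 0.30), Sema7a (2.71 ± 0.48), Plxna4 (3.10 ± 0.46) and Sema3b (2.12 ± 0.25) were higher with the fusion protein, all with adjusted p of at most 7.06e-05. Sema3a (-2.34 ± 0.29), Epha1 (-2.33 ± 0.27), Epha4 (-1.30 ± 0.13), Efna1 (-1.33 ± 0.27) and Slit2 (-1.26 ± 0.17) were lower. Sema3d, with no count in TAZ-CAMTA1, was at least 15.9-fold lower, which is a description only because the filter let it in through TAZ4SA. Epha2 was not DE between them (0.36 ± 0.26, adjusted p = 0.249), though without TAZ4SA replicate 3 the value was 0.82 (adjusted p = 0.00661), and Sema3c (0.58, adjusted p = 0.237) was then 1.15 (adjusted p = 0.0277). Nrp1 (-0.35, adjusted p = 0.094) was -0.55 (adjusted p = 0.0156) without TAZ-CAMTA1 replicate 1. The calls for Efna4, Efna5, Efnb3 and Sema6c were each lost in the absence of 1 library, at adjusted p of 0.0735 to 0.235, 0.0586 to 0.162, 0.0709 to 0.133 and 0.119 to 0.152.

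YAP-TFE3 differed from YAP5SA in 29 members, 17 higher and 12 lower, beside 36.4% and 34.5% of all genes. Higher with the fusion protein were Plxna4 (5.02 ± 0.53), Ephb6 (3.75 ± 0.33), Sema7a (2.50 ± 0.58), Nrp2 (1.70 ± 0.13), Sema3c (1.67 ± 0.42) and Sema5a (1.57 ± 0.23), with adjusted p of at most 0.00129. Lower were Epha2 (-2.18 ± 0.28), Efna1 (-1.96 ± 0.28), Epha4 (-1.36 ± 0.13), Efnb1 (-1.11 ± 0.22) and Slit3 (-0.92 ± 0.19), with adjusted p of at most 0.000141. Robo3 had 1, 1 and 0 counts in YAP-TFE3, a ratio to YAP5SA of 0.00401 (exact 95% interval of 0.000484 to 0.0146). This ratio is a description, because the filter let Robo3 in through TAZ4SA and YAP5SA. Calls for Efna4, Efna5, Sema3a, Sema3d and Sema4a were lost in the absence of 1 library (adjusted p of 0.0532 to 0.154). Sema4g was higher without YAP5SA replicate 3 (0.52, adjusted p = 0.044).

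The fusion proteins differed from each other in 10 members, 6 higher in TAZ-CAMTA1 and 4 lower, beside 5.32% and 6.32% of all genes. Epha2 was 2.50 ± 0.28 higher on the log2 scale in TAZ-CAMTA1 (adjusted p = 3.12e-06), and the lowest TAZ-CAMTA1 library, at 79.5 CPM, lay above the highest YAP-TFE3 library, at 22.1. Slit2 was 1.13 ± 0.17 lower (adjusted p = 8.17e-05), with TAZ-CAMTA1 at no more than 61.7 CPM and YAP-TFE3 at 109, 147 and 124. These calls were kept in every alternative. The other 8 (higher for Ephb2, Sema3b, Sema3f, Sema4b and Sema7a, lower for Efna5, Epha7 and Sema4g) were each lost when at least 1 library was left out, with adjusted p of 0.0533 to 0.205. For Sema4g this was TAZ-CAMTA1 replicate 2, for Epha7 replicate 3 of either group, and for Ephb2, Sema3b and Sema7a any library of the pair. The losses of Efna5, Sema3f and Sema4b came with 5 of the 6 libraries each. Plxna4 was not DE (-0.54 ± 0.35, adjusted p = 0.359), but without TAZ-CAMTA1 replicate 1, the high one, its log2 fold change was -1.47 (adjusted p = 0.0015).

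**Figure D5:**
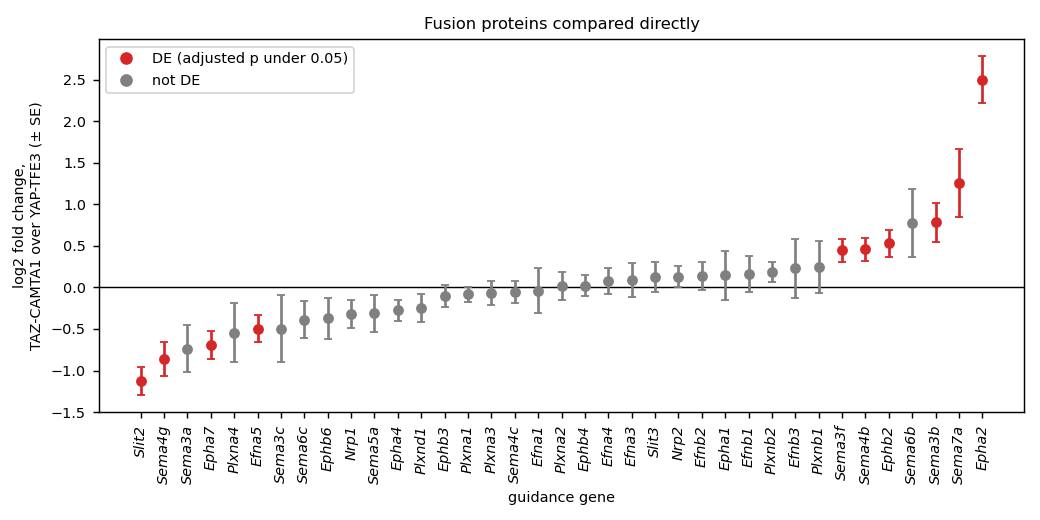
Fitted log2 fold change ± SE of 37 members between TAZ-CAMTA1 and YAP-TFE3 (3 libraries each), ordered by value, with DE genes in red; Robo3, Sema3d and Sema4a are left out because of their low counts. Epha2 (2.50) and Slit2 (-1.13) lie at the ends.

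Few members were DE in the cells with full-length CAMTA1 or TFE3. Sema5a was the 1 member DE between CAMTA1 (116, 109 and 121 CPM) and EVsub (70.1, 37.1 and 79.2), at 0.89 ± 0.22 (adjusted p = 0.0359), with all CAMTA1 libraries above. Without any one CAMTA1 library or without EVsub replicate 2, the adjusted p was 0.0751 to 0.221. Epha2 in CAMTA1 (78.9, 79.3 and 58.3 CPM) also lay above every EVsub library, by 0.97 ± 0.27, but its adjusted p was 0.0576, and Efna1 (14.7, 10.3 and 11.1 CPM, against 23.4, 24.5 and 22.2) lay below at -0.96 ± 0.28 (adjusted p = 0.0717). DESeq2 called both, at adjusted p of 0.0139 and 0.0233, and edgeR called Epha2 without CAMTA1 replicate 3 (adjusted p = 0.0458) or EVsub replicate 1 (adjusted p = 0.0224). DESeq2 also called Plxna4, Plxnb1 (-1.06 ± 0.32 in edgeR, adjusted p = 0.084) and Sema4c (-0.44 ± 0.13 in edgeR, adjusted p = 0.0735). Without EVsub replicate 1, edgeR called Ephb4 (-0.50, adjusted p = 0.0384), Plxnb1 (adjusted p = 0.0475), Plxnd1 (-0.70, adjusted p = 0.0192) and Sema4c (adjusted p = 0.0261). Sema4c was also called without CAMTA1 replicate 3 (adjusted p = 0.0332). In the TFE3 cells Epha2 (8.54, 8.02 and 7.71 CPM) lay below every EV library and Epha7 (14.1, 14.8 and 15) above every one, at -0.84 ± 0.29 (adjusted p = 0.13) and 0.41 ± 0.16 (adjusted p = 0.207), neither of which was DE.

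The comparison of EVsub with EV asks what growth state alone goes with. Besides Epha2 and Nrp1, which were higher, the 14 lower members were Efna4, Efna5, Epha7, Ephb3, Ephb4, Nrp2, Plxna1, Plxnb1, Plxnd1, Sema3b, Sema3c, Sema4c, Sema5a and Sema7a. The calls for Efna5, Ephb3, Ephb4, Sema4c and Sema5a were lost in the absence of 1 library, and Ephb2 was higher without EVsub replicate 3 (0.55, adjusted p = 0.00976). For Sema5a, which stood at 136 CPM in EV replicate 2, the log2 fold change of -0.62 ± 0.22 (adjusted p = 0.0487) was -0.28 (adjusted p = 0.385) without that library, and adjusted p was 0.0624 and 0.263 without EVsub replicates 1 and 2. For Ephb3 (-0.48 ± 0.13) adjusted p was 0.079 without EV replicate 3 and 0.09 without EVsub replicate 1. With EV and EVsub alone in the fit, Ephb3, Ephb4, Sema4c, Sema5a and Plxnd1 (-0.81, adjusted p = 0.0589) were not DE, and Sema5a was not DE with a replicate block (adjusted p = 0.0725). Any difference between TAZ-CAMTA1 and sub-confluent cells was not tested.

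A list of 79 other genes of guidance pathways (netrins, RGMs, FLRTs and their receptors, and signalling partners of the Eph, plexin and Robo receptors) was read beside the members, and 61 were tested. In TAZ4SA 18 rose and 19 fell, in YAP5SA 23 and 24, in TAZ-CAMTA1 9 and 11, and in YAP-TFE3 10 and 7. These are 29.5% and 31.1% of the 61 in TAZ4SA, 37.7% and 39.3% in YAP5SA, 14.8% and 18.0% in TAZ-CAMTA1 and 16.4% and 11.5% in YAP-TFE3, beside the shares of all genes given above for each comparison, and in TAZ4SA and YAP5SA they lie near those shares. In TFE3 1 rose, in CAMTA1 2 rose, with no fall in either, and in EVsub 7 rose and 9 fell (11.5% and 14.8%). Rnd1, a small GTPase that binds plexins, rose by 5.09 ± 0.34 in TAZ4SA, 5.17 ± 0.34 in YAP5SA, 4.53 ± 0.34 in TAZ-CAMTA1 and 2.22 ± 0.35 in EVsub on the log2 scale. Ntn4, a netrin, rose by 2.14 ± 0.26 in TAZ4SA, 2.48 ± 0.25 in TAZ-CAMTA1 and 2.10 ± 0.25 in YAP-TFE3. The log2 fold changes of Plxdc1 were -5.71 ± 0.51 in TAZ4SA, -7.80 ± 0.64 in YAP5SA, -1.14 ± 0.34 in TAZ-CAMTA1, -1.08 ± 0.34 in YAP-TFE3 and -2.88 ± 0.38 in EVsub. Srgap1, which binds Robo receptors, had values of -1.81 ± 0.22 in TAZ4SA, -1.14 ± 0.21 in TAZ-CAMTA1, -1.01 ± 0.21 in YAP-TFE3 and -1.71 ± 0.22 in EVsub, all DE. In YAP5SA Rras2 rose by 2.23 ± 0.17 and Rasa1 fell by 2.38 ± 0.25. Mical1, which oxidizes actin downstream of plexins, rose in YAP-TFE3 (1.84 ± 0.20) and in TFE3 (0.78 ± 0.20, adjusted p = 0.0316). The genes that rose in CAMTA1 were Dpysl3 (0.94 ± 0.15) and Limk1 (0.68 ± 0.16).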

How the data were processed

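The 24 NIH 3T3 libraries form 8 groups of 3 by their titles. For YAP-TFE3 replicate 3 the description names another replicate, and the title was used. The authors deposited raw counts per Ensembl gene, without normalization, which they made from 75 bp paired-end stranded polyA libraries with bcbio-nextgen 1.0.8 and Hisat2 on mm10. The counting program and its strand setting are not given in the sources used here, so overlapping genes may share reads. Symbols, coordinates and exon lengths came from GENCODE M21 (GRCm38), which matched 37693 of 39017 identifiers.

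A filter kept 14361 genes whose counts averaged 5 or more over all libraries. The quasi-likelihood test of edgeR 4.0.16, run in R 4.3.3 after TMM scaling, had a term for each group. Genes were DE at a Benjamini-Hochberg adjusted p under 0.05, and SE is the log2 fold change divided by the root of F. Library totals were 16471181 to 30132586 counts. In simulated counts of TAZ4SA against EV with 200 changed genes among 14361, the test recovered 68.3% at a log2 change of 1 and 92.2% at 2. The mean numbers of false calls were 4.67 and 11. In the data 8253 genes were DE in this comparison, so these rates need not hold there. Exact binomial 95% intervals of count ratios, and the floor of 3 counts per library, cover counting error only, because no molecular identifiers tell copies of a molecule apart. Medians with genes at a bound replace the fitted value by that bound.

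Per-library values are given for up to 4 rises and 4 falls per comparison with an empty vector among DE members that averaged 50 or more counts and showed no overlap, and for the most abundant member of each role. Of the pathway list, the 2 largest rises and falls are named. The members and lists were chosen with earlier results of these data known. P-values rest on the spread between the 3 libraries within groups, pooled over the 8 groups of the fit, and not on the compared groups alone. Library distances used log2 of CPM plus 0.5. The alternatives were DESeq2 1.42.0, its size factors (RLE), no filter on low counts, a block for replicate number, a fit of the compared groups alone, and each library left out. Figures were drawn with matplotlib 3.10.9 in Python 3.11.15, and tables were joined with pandas 2.3.3.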

Additional observations from a re-analysis of the deposited data

How the results depend on the processing

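No member changed direction while DE in any alternative, and among the values recomputed under an alternative 4166 kept their side of the threshold, 157 lost a call and 77 gained one. For CAMTA1 against EVsub, where 1 member was DE, 6 were with DESeq2, 7 with no filter on low counts, 0 with the replicate block, and 0 to 6 when 1 library was left out. For TFE3 against EV, where none was DE, 1 was (Epha2) with no filter and 5 (Efnb2, Epha2, Epha7, Sema3b and Sema3f) with the 2 groups alone in the fit. For TAZ-CAMTA1 against YAP-TFE3 the count of 10 became 3 to 7 when 1 library was left out, with fewer samples in the fit. The causes of the other shifts were not tested. The replicate numbers were not taken as pairs, since in no comparison did every pair of the same number correlate above 0.1 in its deviations from the group means. This rule cannot exclude a pairing of some libraries, because 1 pair is enough to fail it. For CAMTA1 against EVsub the same-number pairs correlated at 0.252, -0.00246 and 0.41, and the crossed pairs of replicates 1 and 3 at -0.353 and -0.283. Whether libraries of the same number share a batch was not tested. Under the replicate block the count was 28 for TAZ4SA, 27 for YAP5SA, 20 for TAZ-CAMTA1 and 13 for YAP-TFE3. Without EV replicate 2 it was 31, 28, 22 and 17. Depth limits the members below 1 CPM, among them Robo3, Sema3d, Sema4a, Sema6b and Efnb3, for which few counts set the precision.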
